A study of Homo sapiens with 12 samples.

Results

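The 56 genes described here build and run the mitotic spindle and separate the chromosomes: mitotic cyclins and CDK1, the spindle checkpoint, mitotic kinases, kinetochore proteins, kinesin motors, proteins of spindle organisation and cytokinesis, and the transcription factors that drive them. They were listed by name from textbook knowledge of mitosis, with earlier results of these data known. Each was read from the probe set annotated to that gene alone, the brightest over the 12 arrays where there were several. All 56 were measured, of 18404 genes in all, and none was removed for a low value. With 96 hours of 0.5 uM all-trans retinoic acid (ATRA), 46 of the 56 fell in HOTAIRM1 knockdown cells, where 14.7% of all genes fell and 10.1% rose, and 52 of the 56 fell in control cells, where 20.9% of all genes fell and 15.2% rose. No member rose. After ATRA, the 56 averaged at or above control cells in knockdown cells, PLK1 and AURKA with differences of 0.00, and no member passed the test. Without the shRNA2 ATRA array, 42 of 56 were above 0, and with quantile normalization 45 of 56 were.

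Total RNA came from NB4, a human acute promyelocytic leukemia line that carries on dividing until ATRA makes it mature toward granulocytes. HOTAIRM1 is a long noncoding RNA of the HOXA cluster. Knockdown cells were NB4 lines with the HOTAIRM1 shRNA1 (2 arrays in each state) or the HOTAIRM1 shRNA2 (1 array in each state), and control cells were NB4 lines that carried a scrambled shRNA (also 2 arrays in each state) and wild type NB4 (1 array in each state), either after ATRA or untreated. That makes 4 arms of 3 arrays. The shRNA lines, scrambled ones included, were made with a lentiviral pLKO.3G vector, sorted for GFP and grown from single-cell clones, whereas the wild type cells had neither vector nor cloning. Each numbered duplicate is called a line below for convenience. The labels call the scrambled and shRNA1 duplicates biological replicates, without saying whether they were separate clones. Each arm also mixes cells of different origin: wild type with scrambled in control arms, shRNA1 with shRNA2 in knockdown arms. The p-values rest on variation within arms, part of which may be technical, and may not reflect variation between independent clones.

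In a dividing cell, CDK1 with its cyclins starts mitosis, and the spindle of microtubules then captures each chromosome at its kinetochore. The spindle checkpoint holds back the anaphase-promoting complex until every kinetochore is attached, after which securin and the cyclins are destroyed and the chromosomes part. Most genes of this machinery are transcribed late in the cell cycle, through promoter elements named CHR (cell cycle genes homology region) and CCAAT box, which are known to bind MuvB complexes with B-MYB and FOXM1, and NF-Y. When myeloid precursors mature they leave the cell cycle. Each array measured the RNA of a whole culture, so fewer dividing cells and less of these RNAs in each dividing cell cannot be told apart.

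The promoters below show those elements in members whose values are given further on. Windows from 250 bases before to 50 bases after the annotated start were available in RefSeq (GRCh38.p14) for 47 of the 56 members, and BUB3, TTK, UBE2C, AURKA, BIRC5, CENPM, TPX2, FOXM1 and PBK were not among them. Printed are 200 bases, from 170 before to 30 after the start, 5′ to 3′ on the strand of the gene. MAD2L1, BUB1B, KIF23, KIF15 and KIF20B had the smallest p for the ATRA change in control cells among members with a CHR match, CDC25B stands for the members whose change did not pass the test, and PLK1 was added after its values were seen. Of the CDC25B windows, the one with TTCGAA was chosen for printing, so its match follows from that choice. The others held neither TTTGAA nor TTCGAA. Capitals mark the letters TTTGAA (CHR), TTCGAA (a CHR variant), CCAAT, or an E2F sequence, read on either strand. The stretches lie at chr4:120066819-120067018 on the minus strand (MAD2L1) and, on the plus strand, at chr15:40160899-40161098 (BUB1B), chr15:69414179-69414378 (KIF23), chr3:44761624-44761823 (KIF15), chr10:89701420-89701619 (KIF20B), chr20:3796140-3796339 (CDC25B, 1 of its windows) and chr16:23678719-23678918 (PLK1).
MAD2L1: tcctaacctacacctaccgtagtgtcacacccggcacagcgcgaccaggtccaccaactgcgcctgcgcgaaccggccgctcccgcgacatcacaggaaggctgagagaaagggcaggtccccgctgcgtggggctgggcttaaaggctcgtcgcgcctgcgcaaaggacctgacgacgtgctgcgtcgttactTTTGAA
BUB1B: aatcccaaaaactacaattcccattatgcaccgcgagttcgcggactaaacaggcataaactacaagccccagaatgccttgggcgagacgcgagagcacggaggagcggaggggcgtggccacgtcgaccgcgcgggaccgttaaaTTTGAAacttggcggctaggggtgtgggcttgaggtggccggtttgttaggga
KIF23: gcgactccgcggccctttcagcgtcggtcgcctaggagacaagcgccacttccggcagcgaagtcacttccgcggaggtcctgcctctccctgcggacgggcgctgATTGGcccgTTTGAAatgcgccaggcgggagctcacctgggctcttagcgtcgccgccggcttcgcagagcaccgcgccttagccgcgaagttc
KIF15: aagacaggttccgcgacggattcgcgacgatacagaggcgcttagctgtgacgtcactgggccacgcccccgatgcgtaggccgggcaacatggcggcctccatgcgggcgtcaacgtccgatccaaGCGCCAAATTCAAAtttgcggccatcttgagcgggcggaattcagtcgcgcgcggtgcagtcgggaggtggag
KIF20B: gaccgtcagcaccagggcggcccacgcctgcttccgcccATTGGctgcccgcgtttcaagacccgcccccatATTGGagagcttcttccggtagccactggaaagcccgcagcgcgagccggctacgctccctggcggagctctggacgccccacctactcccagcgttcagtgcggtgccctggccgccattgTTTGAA
CDC25B: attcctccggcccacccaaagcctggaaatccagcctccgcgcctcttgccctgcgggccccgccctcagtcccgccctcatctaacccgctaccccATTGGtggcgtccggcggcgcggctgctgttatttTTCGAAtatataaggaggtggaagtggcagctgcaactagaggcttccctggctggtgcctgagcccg
PLK1: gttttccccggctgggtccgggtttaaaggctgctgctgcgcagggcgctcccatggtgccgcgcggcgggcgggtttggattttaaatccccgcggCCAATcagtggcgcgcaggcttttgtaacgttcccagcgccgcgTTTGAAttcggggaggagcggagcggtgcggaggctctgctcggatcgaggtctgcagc

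Counted from the start, with 1 as its first transcribed base, the CHR letters lay at -23 to -18 in BUB1B, at -55 to -50 in KIF23, at -29 to -24 in PLK1 and at 25 to 30 in MAD2L1. In KIF15 the CHR letters, on the opposite strand at -35 to -30, follow directly on an E2F sequence at -43 to -36, so their capitals run together. KIF20B has a match at 25 to 30 and a further one at 31 to 36, just past the printed end. CDC25B has TTCGAA, which reads alike on both strands, at -38 to -33, with a CCAAT box at -73 to -69, and PLK1 has its CCAAT box at -73 to -69 as well.

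Over full windows of 300 bases, TTTGAA on either strand was found for 31 of 47 members (66.0%), 1 of 26 genes of a list of S phase genes (3.85%) and 18.2% of all genes with a promoter in the table. CCAAT was found for 37 of 47 members (78.7%), 57.7% of the S phase genes and 39.7% of all genes. Both stood in the windows of 26 members (55.3%), against 3.85% of S phase genes and 7.26% of all genes. An E2F sequence (TTTGGCGC, TTTCGCGC, GGCGGGAA or GGCGCGAA) was found for 6 members (12.8%), against 65.4% of S phase genes and 5.92% of all genes. A match describes letters only, and its absence says only that these letters are not in this window.

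**Figure D1:**
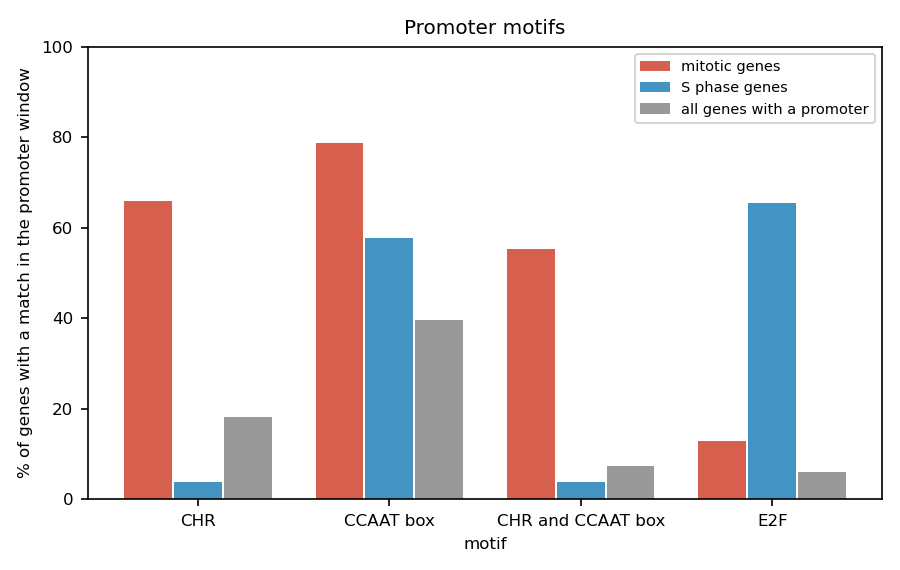
Share of genes, in percent, with a match to each motif on either strand within 250 bases before to 50 bases after a start, for 47 mitotic genes, 26 S phase genes and all genes with a promoter in the table. CHR matches stand at 66.0% of the mitotic genes, against 3.85% of S phase genes and 18.2% of all genes, and E2F matches at 12.8%, 65.4% and 5.92%.

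Before the members, the arrays themselves need a word. MPO, the promyelocyte's myeloperoxidase, stood between 13.51 and 13.81 on the log2 scale in all 6 untreated arrays. All 6 measured markers of granulocytic maturation (ITGAM, ITGAX, CYBB, FPR1, TGM2 and CD38) rose with ATRA in knockdown cells and 5 of the 6 in control cells, all but CD38. Of 2 monocyte markers measured, 1 rose in knockdown cells and 2 in control cells. Over all genes, 10.1% rose in knockdown cells and 15.2% in control cells. In control cells 1 of 4 T cell, 1 of 3 erythroid and 1 of 3 megakaryocyte markers rose as well, and 0 of them in knockdown cells. Of 3 B cell markers, 1 fell in each kind of cells and 0 rose. The untreated scrambled 2 array stood apart from the other untreated arrays, at -10.6 on the first principal component where the other 5 lay between -41.2 and -32.5. TGM2, a transglutaminase strongly induced by ATRA in NB4 cells, was at 12.86 there, against 8.30 in the untreated scrambled 1 array and 8.16 in untreated wild type cells, and ITGAM (CD11b) was at 10.16, against 8.56 and 8.36. The mitotic genes were not low in that array, where their median lay 0.07 above the mean of untreated control cells. The part of that array in the results was not tested beyond refitting without it. Counts or medians of the members without it are given with the results below. Whether the shRNAs lowered HOTAIRM1 itself was not analysed here, since the probe annotation used names no probe set for it.

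With ATRA, 46 of the 56 members were called lower in knockdown cells (limma, adjusted p under 0.05), against 14.7% of all genes, and 52 in control cells, against 20.9% of all genes. None was called higher, against 10.1% of all genes in knockdown cells and 15.2% in control cells. Every member's mean change was below 0 in knockdown cells, against 56.9% of all genes, and in control cells, against 43.1%. The median change was -0.61 on the log2 scale in knockdown cells, a level 0.66 times that of untreated cells, and -0.77 in control cells, a level of 0.59 times, where the medians over all genes were -0.03 and 0.05. Changes ran from -1.49 (PBK) to -0.07 (UBE2C) in knockdown cells and from -1.63 (PBK) to -0.19 (UBE2C) in control cells. All ATRA arrays lay below all untreated arrays for 49 members in knockdown cells, against 24.6% of all genes, and for 48 in control cells, against 23.4%. By calls, 44 members fell in both kinds of cells, 8 were called in control cells alone, 2 in knockdown cells alone (CENPE and TOP2A) and 2 in neither (CDC25B and UBE2C). The call in 1 kind of cells and not in the other is no test of a difference, which is given further on. Of the 8 called in control cells alone, BUB3 and ASPM lost that call under 6 of 21 alternatives. KIF14, PRC1 and MKI67 lost it under 5 and CDC25C under 4, while ESPL1 and CENPI kept it throughout. Leaving out the shRNA1 replicate 1 ATRA array cut the calls in knockdown cells to 30. Leaving out the untreated scrambled 2 array cut those in control cells to 46 (median -0.72), where 3748 of 18404 genes were called lower. ASPM, BUB3, CDC25C, KIF14, MKI67 and PRC1 were then no longer called.

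**Figure D2:**
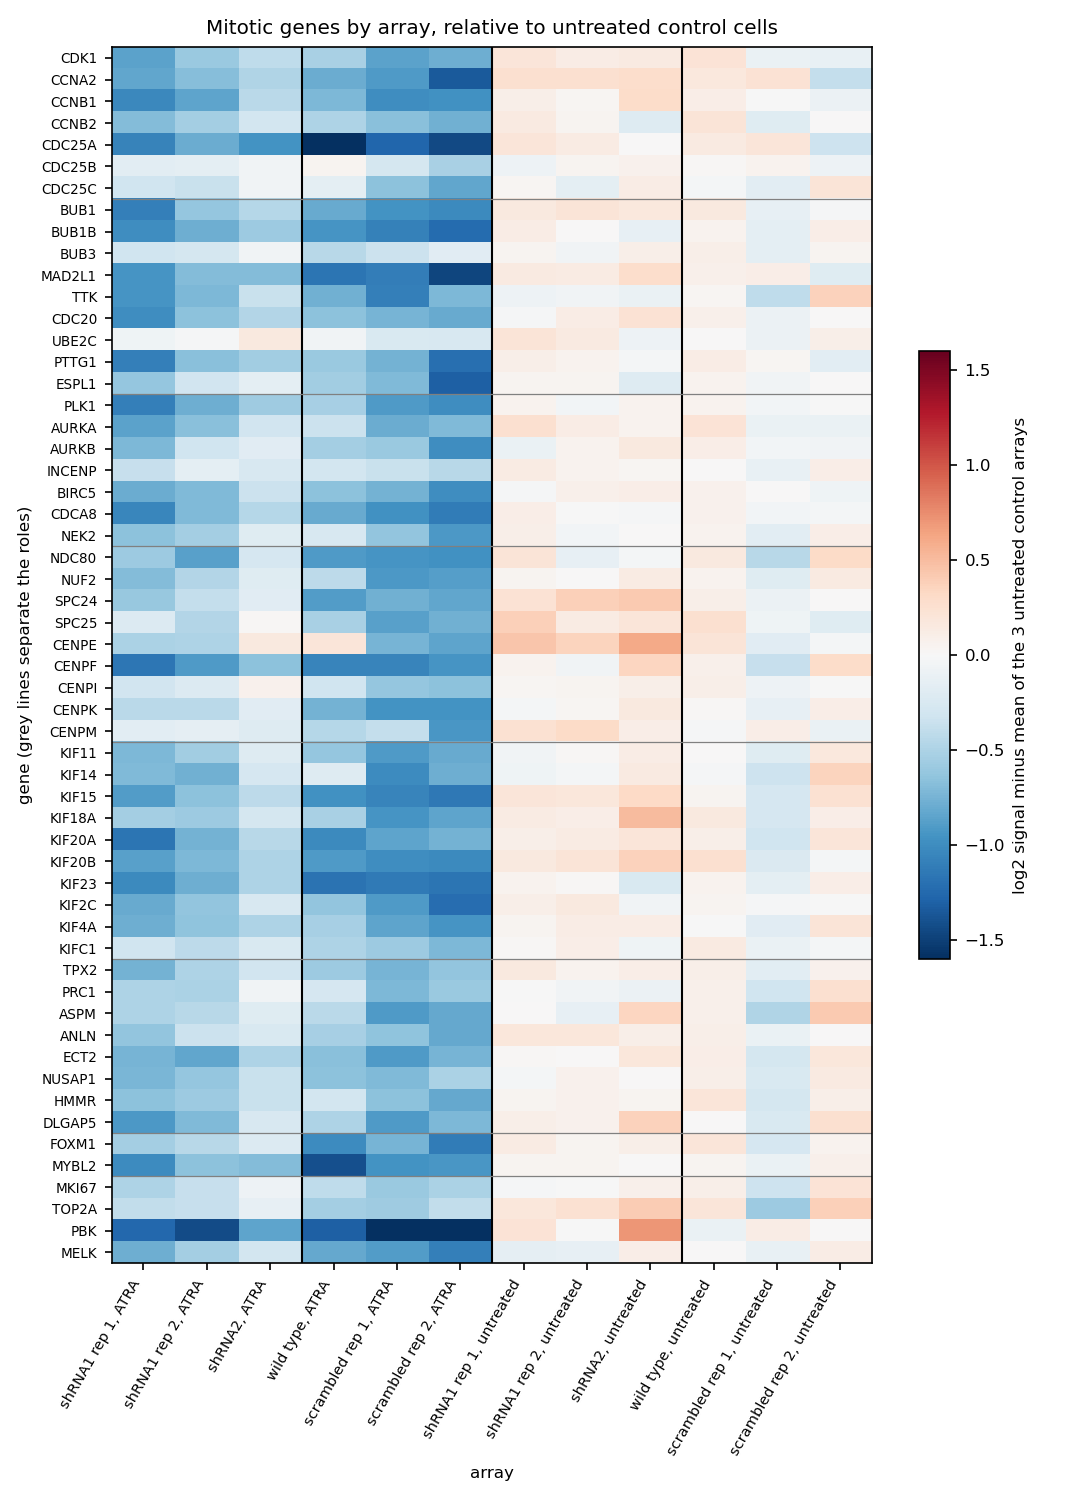
Log2 signal of each of the 56 genes (rows, grouped by role) on each of the 12 arrays (columns), minus that gene's mean over the 3 untreated control arrays. Blue is lower and red higher, and values past the ends of the scale take its end colour. The 6 ATRA columns on the left are blue for nearly every gene, palest in shRNA2, and PBK and CDC25A are among the darkest rows.

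In what follows, values are log2 signals, given for knockdown cells in the order shRNA1 replicate 1, shRNA1 replicate 2, shRNA2, and for control cells in the order wild type, scrambled 1, scrambled 2. Levels of different genes come from different probes and are not compared. Changes are given with their standard error from the fit over 3 arrays in each arm, and adjusted p-values are from limma over all genes. The counts of members that fell in each role stand against 14.7% of all genes in knockdown cells and 20.9% in control cells.

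Of the 7 mitotic cyclins, CDK1 and CDC25 phosphatases, 5 fell in knockdown cells (median -0.76) and 6 in control cells (median -0.72). CDC25A, a phosphatase that removes inhibitory phosphates from CDKs, was at 9.06, 9.34 and 9.17 in knockdown cells after ATRA, against 10.32, 10.26 and 10.13 untreated. In control cells it was at 8.24, 8.86 and 8.69 after ATRA, against 10.27, 10.33 and 9.80 untreated. The ATRA arrays lay below all untreated arrays, and the 3 control arrays after ATRA lay below the 3 knockdown arrays. Its change was -1.05 ± 0.17 in knockdown cells (adjusted p = 0.00114) and -1.54 ± 0.17 in control cells (adjusted p = 9.89e-05), levels of 0.48 and 0.34 times the untreated ones. CCNA2, cyclin A2, was at 10.68, 10.83 and 11.03 in knockdown cells after ATRA, against 11.77, 11.76 and 11.79 untreated, and at 10.72, 10.60 and 10.16 in control cells after ATRA, against 11.68, 11.74 and 11.13 untreated. It changed by -0.93 ± 0.17 in knockdown cells (adjusted p = 0.00247) and by -1.02 ± 0.17 in control cells (adjusted p = 0.000954), with scrambled 2 the lowest control array in both states.

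CDC25B, another CDC25 phosphatase, behaved otherwise. It was at 9.16, 9.17 and 9.27 in knockdown cells after ATRA, against 9.25, 9.37 and 9.40 untreated, and at 9.37, 9.05 and 8.81 in control cells after ATRA, against 9.35, 9.39 and 9.25 untreated. The groups overlap, and neither change passed the test (-0.14 ± 0.12, adjusted p = 0.473, and -0.25 ± 0.12, adjusted p = 0.117). CDC25C, which activates CDK1, had changes of -0.25 ± 0.16 in knockdown cells (adjusted p = 0.327) and -0.55 ± 0.16 in control cells (adjusted p = 0.0215), of which only the second passed. CDK1 itself and the B-type cyclins CCNB1 and CCNB2 fell in both kinds of cells, by -0.91 to -0.50 in knockdown cells and by -0.90 to -0.65 in control cells.

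Among the 9 genes of the spindle checkpoint and of anaphase, 6 fell in knockdown cells (median -0.78) and 8 in control cells (median -0.86). MAD2L1, the checkpoint protein that holds CDC20 inactive, was at 9.42, 9.66 and 9.67 in knockdown cells after ATRA, against 10.50, 10.49 and 10.64 untreated. In control cells it was at 9.19, 9.25 and 8.89 after ATRA, against 10.44, 10.47 and 10.16 untreated. ATRA and untreated arrays did not overlap, and its changes were -0.96 ± 0.12 in knockdown cells (adjusted p = 0.000414) and -1.25 ± 0.12 in control cells (adjusted p = 6.64e-05), the smallest adjusted p of any member in either. Its CHR letters, unlike those of the other promoters printed except KIF20B, lie just after the start. BUB1B, the checkpoint kinase-like protein BubR1, was at 9.84, 10.05 and 10.25 in knockdown cells after ATRA, against 10.95, 10.83 and 10.70 untreated, and at 9.89, 9.75 and 9.60 in control cells after ATRA, against 10.88, 10.67 and 10.94 untreated. It changed by -0.78 ± 0.12 (adjusted p = 0.000975) and by -1.09 ± 0.12 (adjusted p = 0.000106) in knockdown and control cells.

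UBE2C, the ubiquitin-conjugating enzyme of the anaphase-promoting complex, had the smallest changes of all members. It was at 8.91, 8.96 and 9.13 in knockdown cells after ATRA, against 9.19, 9.12 and 8.90 untreated, and at 8.93, 8.73 and 8.72 in control cells after ATRA, against 8.99, 8.88 and 9.07 untreated. The groups overlap, in knockdown cells because shRNA2 stood higher after ATRA than before it. Neither change passed (-0.07 ± 0.10, adjusted p = 0.697, and -0.19 ± 0.10, adjusted p = 0.159). BUB3, a checkpoint protein with further roles outside mitosis, and ESPL1, the protease separase that cuts cohesin, passed in control cells only. BUB3 had -0.25 ± 0.10 in knockdown cells (adjusted p = 0.1) and -0.32 ± 0.10 in control cells (adjusted p = 0.0287), and ESPL1 had -0.32 ± 0.18 (adjusted p = 0.239) and -0.86 ± 0.18 (adjusted p = 0.00294). The checkpoint kinases BUB1 and TTK, the anaphase activator CDC20 and securin (PTTG1) fell in both, by -0.90 to -0.59 in knockdown cells and by -0.93 to -0.74 in control cells. The call of TTK in knockdown cells was lost under 7 of 21 alternatives.

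All 7 mitotic kinases and chromosomal passenger proteins fell in both kinds of cells, with medians of -0.67 in knockdown cells and -0.71 in control cells. CDCA8, the passenger protein borealin, was at 9.08, 9.41 and 9.66 in knockdown cells after ATRA, against 10.23, 10.11 and 10.10 untreated, and at 9.31, 9.15 and 9.00 in control cells after ATRA, against 10.19, 10.08 and 10.09 untreated. It changed by -0.76 ± 0.13 (adjusted p = 0.00153) and by -0.97 ± 0.13 (adjusted p = 0.000253) in knockdown and control cells. PLK1, the polo kinase that acts from mitotic entry to cytokinesis, was at 11.51, 11.82 and 12.03 in knockdown cells after ATRA, against 12.66, 12.55 and 12.65 untreated, and at 12.07, 11.69 and 11.60 in control cells after ATRA, against 12.65, 12.56 and 12.59 untreated. The untreated arrays lay close together, the groups did not overlap, and the changes were nearly alike, -0.83 ± 0.14 (adjusted p = 0.00132) and -0.82 ± 0.14 (adjusted p = 0.000921). INCENP, the scaffold of the passenger complex, changed least here, with 9.42, 9.63 and 9.53 in knockdown cells after ATRA, against 9.92, 9.85 and 9.82 untreated, and 9.50, 9.43 and 9.34 in control cells after ATRA, against 9.80, 9.67 and 9.89 untreated. Its arrays did not overlap either, with changes of -0.34 ± 0.08 (adjusted p = 0.011) and -0.36 ± 0.08 (adjusted p = 0.00555). The aurora kinases AURKA and AURKB, survivin (BIRC5) and the centrosome kinase NEK2 changed by -0.76 to -0.44 in knockdown cells and by -0.80 to -0.60 in control cells. In knockdown cells the calls of AURKB and NEK2 were lost under 13 and 10 of 21 alternatives. A dimmer probe set for BIRC5, not used here, had smaller mean changes of -0.33 in knockdown cells and -0.15 in control cells.

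Of the 9 kinetochore and centromere genes, 8 fell in knockdown cells (median -0.51) and 8 in control cells (median -0.74). CENPF, a large protein of the outer kinetochore, was at 9.33, 9.58 and 9.82 in knockdown cells after ATRA, against 10.54, 10.42 and 10.83 untreated, and at 9.42, 9.43 and 9.54 in control cells after ATRA, against 10.56, 10.11 and 10.77 untreated. Its changes of -1.02 ± 0.17 (adjusted p = 0.0014) and -1.01 ± 0.17 (adjusted p = 0.000887) left 0.49 times the untreated level in each. SPC24, a subunit of the NDC80 complex that grips microtubules, was at 8.38, 8.61 and 8.81 in knockdown cells after ATRA, against 9.22, 9.37 and 9.41 untreated, and at 8.10, 8.22 and 8.16 in control cells after ATRA, against 9.09, 8.89 and 9.00 untreated. It changed by -0.73 ± 0.11 (adjusted p = 0.000739) and by -0.83 ± 0.11 (adjusted p = 0.0002), and its knockdown arrays lay above its control arrays in both states. CENPI, a protein of the inner kinetochore, was at 9.17, 9.26 and 9.55 in knockdown cells after ATRA, against 9.51, 9.53 and 9.58 untreated, and at 9.16, 8.86 and 8.83 in control cells after ATRA, against 9.58, 9.40 and 9.47 untreated. The knockdown groups overlap through shRNA2, and its changes were -0.21 ± 0.11 in knockdown cells (adjusted p = 0.216) and -0.53 ± 0.11 in control cells (adjusted p = 0.00346).

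CENPE, the kinesin that carries chromosomes to the spindle equator, had wide spreads. It was at 8.41, 8.42 and 9.07 in knockdown cells after ATRA, against 9.36, 9.28 and 9.53 untreated, and at 9.11, 8.17 and 8.07 in control cells after ATRA, against 9.13, 8.74 and 8.89 untreated. The wild type ATRA array stood above the untreated scrambled arrays. Its changes were -0.76 ± 0.25 in knockdown cells (adjusted p = 0.047) and -0.47 ± 0.25 in control cells (adjusted p = 0.164). The call in knockdown cells was lost under 12 of 21 alternatives, and without the wild type ATRA array the control change was -0.80 and passed. NDC80, NUF2, SPC25, CENPK and CENPM fell in both, by -0.59 to -0.39 in knockdown cells and by -0.94 to -0.59 in control cells. In knockdown cells the call of CENPM was lost under 10 of 21 alternatives, that of NDC80 under 9, SPC25 under 7, NUF2 under 6 and CENPK under 3.

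Of the 10 kinesin motors, 9 fell in knockdown cells (median -0.71) and 10 in control cells (median -0.82). KIF15, a motor that helps push the spindle poles apart, was at 8.32, 8.56 and 8.79 in knockdown cells after ATRA, against 9.40, 9.39 and 9.53 untreated, and at 8.24, 8.16 and 8.07 in control cells after ATRA, against 9.26, 8.94 and 9.45 untreated. It changed by -0.88 ± 0.14 (adjusted p = 0.00103) and by -1.06 ± 0.14 (adjusted p = 0.000215). KIF20B, a motor of cytokinesis, was at 8.53, 8.68 and 8.91 in knockdown cells after ATRA, against 9.55, 9.61 and 9.77 untreated, and at 8.50, 8.40 and 8.38 in control cells after ATRA, against 9.65, 9.17 and 9.37 untreated. Its changes were -0.93 ± 0.13 (adjusted p = 0.000562) and -0.97 ± 0.13 (adjusted p = 0.00022), and in both genes no ATRA array reached an untreated one. KIF23, a motor of the central spindle and the midbody, was at 9.34, 9.58 and 9.87 in knockdown cells after ATRA, against 10.41, 10.38 and 10.11 untreated, and at 9.18, 9.23 and 9.19 in control cells after ATRA, against 10.41, 10.20 and 10.47 untreated. It changed by -0.70 ± 0.13 (adjusted p = 0.00241) and by -1.16 ± 0.13 (adjusted p = 0.000106), the shRNA2 pair lying closest together.

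KIFC1, a minus-end motor that gathers spindle poles, changed least among the kinesins. It was at 9.26, 9.16 and 9.33 in knockdown cells after ATRA, against 9.60, 9.69 and 9.51 untreated, and at 9.08, 9.00 and 8.86 in control cells after ATRA, against 9.72, 9.47 and 9.55 untreated, with changes of -0.35 ± 0.09 (adjusted p = 0.0142) and -0.60 ± 0.09 (adjusted p = 0.000463). Its probe sets disagree: a dimmer one had mean changes of -0.09 in knockdown cells and 0.38 in control cells, and with the probe sets averaged the changes were -0.22 (adjusted p = 0.117) and -0.11 (adjusted p = 0.373). KIF14, another motor of cytokinesis, had -0.60 ± 0.22 in knockdown cells (adjusted p = 0.0655) and -0.67 ± 0.22 in control cells (adjusted p = 0.031). KIF11, KIF18A, KIF20A, KIF2C and KIF4A fell in both, by -0.92 to -0.52 in knockdown cells and by -0.93 to -0.77 in control cells.

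Of the 8 genes of spindle organisation and cytokinesis, 6 fell in knockdown cells (median -0.58) and 8 in control cells (median -0.66). ECT2, the exchange factor that turns on RhoA for the cleavage furrow, was at 8.78, 8.69 and 9.02 in knockdown cells after ATRA, against 9.54, 9.52 and 9.70 untreated, and at 8.85, 8.61 and 8.78 in control cells after ATRA, against 9.63, 9.24 and 9.70 untreated. It changed by -0.76 ± 0.13 (adjusted p = 0.00149) and by -0.78 ± 0.13 (adjusted p = 0.000799). DLGAP5, which stabilises spindle microtubules near chromosomes, was at 9.04, 9.25 and 9.70 in knockdown cells after ATRA, against 10.05, 10.03 and 10.33 untreated, and at 9.47, 9.06 and 9.24 in control cells after ATRA, against 9.96, 9.72 and 10.21 untreated. Its change in knockdown cells, -0.81 ± 0.18 (adjusted p = 0.006), was not the smaller one, with -0.70 ± 0.18 in control cells (adjusted p = 0.00933).

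PRC1, the protein that bundles microtubules of the central spindle, was at 10.26, 10.24 and 10.70 in knockdown cells after ATRA, against 10.74, 10.69 and 10.66 untreated, and at 10.48, 10.03 and 10.15 in control cells after ATRA, against 10.83, 10.43 and 11.00 untreated. Both pairs of groups overlap, and its changes were -0.29 ± 0.16 (adjusted p = 0.242) and -0.53 ± 0.16 (adjusted p = 0.0259). ASPM, a spindle pole protein, had -0.45 ± 0.21 in knockdown cells (adjusted p = 0.151) and -0.72 ± 0.21 in control cells (adjusted p = 0.0197). TPX2, ANLN, NUSAP1 and HMMR fell in both, by -0.62 to -0.55 in knockdown cells and by -0.66 to -0.59 in control cells.

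Both transcription factors fell. MYBL2 (B-MYB), which joins the MuvB complex at CHR elements, was at 10.63, 10.99 and 10.95 in knockdown cells after ATRA, against 11.68, 11.68 and 11.65 untreated, and at 10.24, 10.69 and 10.71 in control cells after ATRA, against 11.68, 11.53 and 11.72 untreated. It changed by -0.81 ± 0.13 (adjusted p = 0.00114) and by -1.10 ± 0.13 (adjusted p = 0.000142). FOXM1, which follows it there in the cycle, was at 10.01, 10.11 and 10.33 in knockdown cells after ATRA, against 10.68, 10.60 and 10.64 untreated, and at 9.54, 9.81 and 9.43 in control cells after ATRA, against 10.75, 10.28 and 10.61 untreated. It changed by -0.49 ± 0.13 (adjusted p = 0.0177) and by -0.96 ± 0.13 (adjusted p = 0.000285), and its knockdown ATRA arrays all lay above its control ATRA arrays. The call of FOXM1 in knockdown cells was lost under 4 of 21 alternatives.

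Of the 4 other proliferation genes, 3 fell in knockdown cells and 3 in control cells. PBK, a mitotic kinase, had the largest change of all members. It was at 7.47, 7.30 and 7.89 in knockdown cells after ATRA, against 8.95, 8.72 and 9.44 untreated, and at 7.42, 6.81 and 7.09 in control cells after ATRA, against 8.62, 8.85 and 8.73 untreated. Its changes were -1.49 ± 0.20 (adjusted p = 0.000572) and -1.63 ± 0.20 (adjusted p = 0.000183), levels of 0.36 and 0.32 times the untreated ones. MELK, a kinase of cycling cells, was at 8.42, 8.65 and 8.91 in knockdown cells after ATRA, against 9.05, 9.07 and 9.31 untreated, and at 8.38, 8.31 and 8.11 in control cells after ATRA, against 9.21, 9.08 and 9.32 untreated. It changed by -0.48 ± 0.13 (adjusted p = 0.016) and by -0.94 ± 0.13 (adjusted p = 0.000278).

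MKI67, the source of the Ki-67 antigen used to count cycling cells, changed less than most. It was at 10.42, 10.54 and 10.83 in knockdown cells after ATRA, against 10.89, 10.90 and 10.99 untreated, and at 10.51, 10.32 and 10.40 in control cells after ATRA, against 11.01, 10.58 and 11.13 untreated. Only the control change passed (-0.33 ± 0.14, adjusted p = 0.113, in knockdown cells and -0.50 ± 0.14, adjusted p = 0.0163, in control cells). TOP2A, the topoisomerase that untangles sister chromatids, was at 10.71, 10.74 and 10.98 in knockdown cells after ATRA, against 11.29, 11.35 and 11.52 untreated, and at 10.57, 10.54 and 10.71 in control cells after ATRA, against 11.30, 10.53 and 11.49 untreated. The untreated scrambled 1 array lay with the ATRA arrays. TOP2A had -0.58 ± 0.19 in knockdown cells (adjusted p = 0.0496), a call lost under 15 of 21 alternatives, and -0.50 ± 0.19 in control cells (adjusted p = 0.0628), which was -0.79 and passed without the untreated scrambled 1 array.

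**Figure D3:**
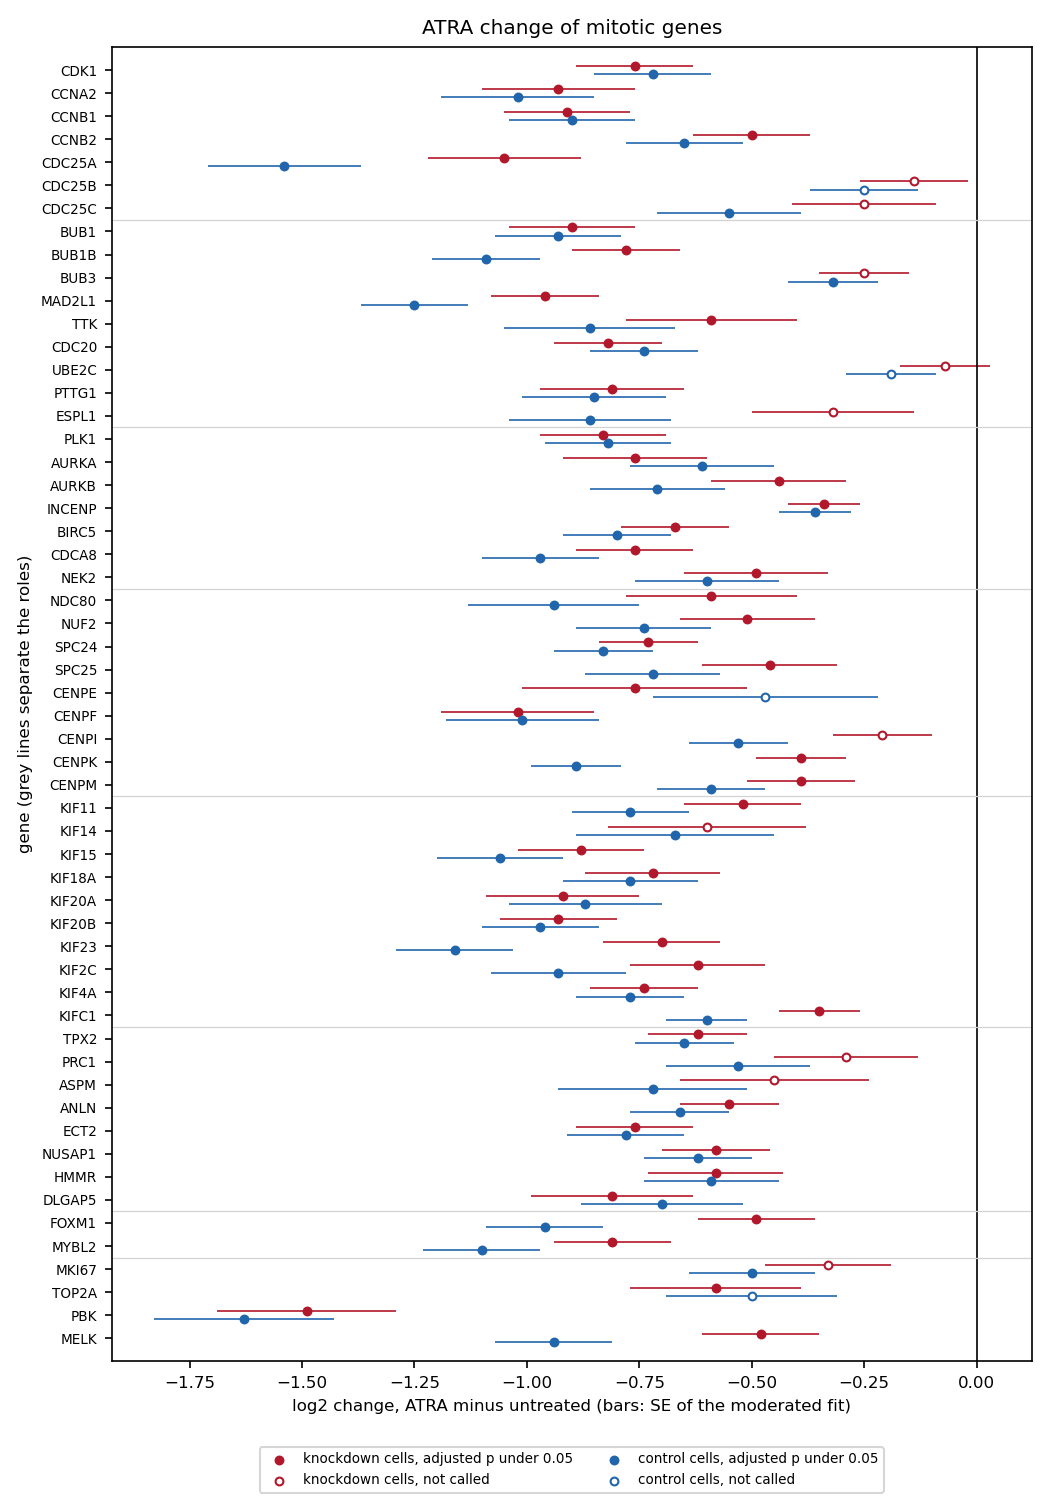
Log2 change with ATRA of each of the 56 genes, grouped by role, in knockdown cells (red) and control cells (blue), with bars for the standard error of the fit over 3 arrays in each arm. Filled points passed an adjusted p of 0.05 in limma. All points lie left of 0, from -1.63 for PBK in control cells to -0.07 for UBE2C in knockdown cells.

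The printed promoters with CHR letters were chosen from genes with clear falls, so the members were also split by the letters alone. The 31 members with TTTGAA in a window had median changes of -0.59 in knockdown cells and -0.74 in control cells, and the 16 members whose windows lack it had -0.74 and -0.88. The test was passed in knockdown cells by 25 of the 31 and 14 of the 16, and in control cells by 30 and 14. These splits are descriptions and were not tested.

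Line by line, the ATRA array minus the untreated array of the same line was below 0 in all 6 lines for 51 of the 56 members, against 21.3% of all genes. The exceptions were CDC25B, UBE2C, ESPL1, PRC1 and TOP2A. Arrays were paired here by line and replicate number. In scrambled 1 and wild type cells, deviations of the paired arrays from their arm means correlated at only -0.108 and -0.173. The median change of the members was -0.40 in shRNA2 (53 of 56 below 0), -0.79 in shRNA1 replicate 1 (56 of 56) and -0.69 in shRNA1 replicate 2 (56 of 56). Among control lines it was -0.66 in scrambled 1 (55 of 56 below 0), -0.97 in scrambled 2 (56 of 56) and -0.71 in wild type cells (55 of 56). Over all genes, 60.3%, 50.8%, 54.7%, 49.1%, 47% and 42.5% of changes were below 0, in the same order of lines. The shRNA1 lines thus lay within the range of the control lines, and shRNA2 lay above all others. The shRNA2 change was the least negative of the 6 for 35 of 56 members, against 15.4% of all genes, and scrambled 2 had the most negative change for 33, against 20.1%. The scrambled 1 untreated array was the lowest of the 6 untreated arrays for 37 members, against 13.5% of all genes.

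In each of the 8 role groups the shRNA2 line had the least negative median. Kinesins changed by a median of -0.51 in shRNA2, -0.86 and -0.78 in the shRNA1 lines, -0.70 and -1.07 in the scrambled lines and -0.68 in wild type cells. For kinetochore and centromere genes these medians were -0.32 in shRNA2, -0.73 and -0.60 in the shRNA1 lines, -0.67 and -0.84 in the scrambled lines and -0.78 in wild type cells. PBK had the most negative change in every line but wild type, where CDC25A did, at -2.03. In shRNA2, UBE2C was higher after ATRA than before, by 0.23.

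**Figure D4:**
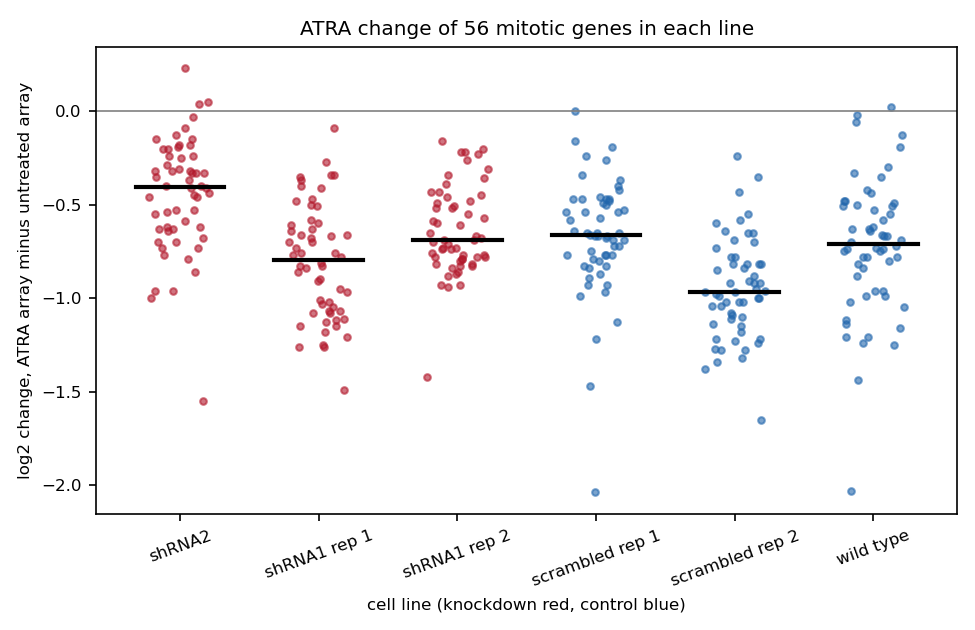
Log2 change with ATRA of each of the 56 genes in each line (points, spread sideways for clarity), with the median as a black bar, in knockdown lines (red) and control lines (blue). Medians run from -0.97 in scrambled 2 to -0.40 in shRNA2.

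Before ATRA, no difference between knockdown and control cells passed the test. No member and no gene of the 18404 passed in limma (0% in either direction), and 1 member, SPC24, had an unadjusted p under 0.05, as had 3.95% of all genes. The median difference, knockdown minus control, was 0.06, with 48 of 56 members above 0, where 51.2% of all genes were. Knockdown arrays lay above all control arrays for 6 members, against 3.75% of all genes, and below them for none, against 4.04%. SPC24, whose arrays are given above, had the smallest p, with a difference of 0.34 ± 0.11 (adjusted p = 0.999), followed by KIF20B at 0.24 ± 0.13, CENPE at 0.47 ± 0.25 and CENPM at 0.22 ± 0.12, all with an adjusted p of 0.999. CENPM, a small inner kinetochore protein, was at 10.28, 10.34 and 10.15 in untreated knockdown cells, against 10.02, 10.15 and 9.93 in untreated control cells. Without the untreated scrambled 1 array the median difference of members was 0.00. Without the untreated scrambled 2 array it was 0.11, with 49 of 56 above 0. The 6 maturation markers had a median difference of -0.75 between untreated knockdown and control cells, with none called. Their control mean includes the untreated scrambled 2 array, where TGM2 and ITGAM stood well above the other untreated control arrays. No marker value without that array is given here, and the part of the markers in these values was not tested.

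After ATRA, no member passed in the same comparison, where 0.0543% of all genes were called higher and 0.00543% lower. An unadjusted p under 0.05 was found for 19 of 56 members and for 28.1% of all genes. All 56 members averaged at or above the control mean, against 45.3% of all genes above 0. The median difference was 0.22 (1.16 times), where the median over all genes was -0.03. With the dimmest genes left out, the median over all genes was 0.05. Quantile normalization gave members a median of 0.15, with 45 of 56 above 0, and array weights one of 0.29, with 56 of 56. All 3 knockdown arrays lay above all 3 control arrays for 14 members, against 14.3% of all genes: CDC25A, MAD2L1, NDC80, SPC24, SPC25, CENPI, CENPK, CENPM, KIF15, KIF20B, KIF23, KIFC1, FOXM1 and MELK. These comparisons share their arrays with the ATRA changes above and are no separate evidence. The largest differences by role were in kinetochore and centromere genes (median 0.38) and in the transcription factors (median 0.44), and the smallest in spindle organisation and cytokinesis (median 0.11), the mitotic kinases (median 0.13) and the cyclins, CDK1 and CDC25 phosphatases (median 0.13).

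CENPK, an inner kinetochore protein, came nearest to the threshold. It was at 10.01, 10.01 and 10.26 in knockdown cells after ATRA, against 9.68, 9.48 and 9.48 in control cells after ATRA, a difference of 0.55 ± 0.10 (adjusted p = 0.0506). Untreated, it was at 10.41, 10.47 and 10.59 in knockdown cells, against 10.46, 10.31 and 10.55 in control cells, where the arrays overlap. FOXM1 had 0.56 ± 0.13 (adjusted p = 0.0555), SPC24 0.44 ± 0.11 (adjusted p = 0.0568) and MAD2L1 0.48 ± 0.12 (adjusted p = 0.059). Without the untreated scrambled 2 array, which is not an ATRA array but enters the shared estimate of the spread, CENPK, CDC25A, MAD2L1 and FOXM1 passed, with adjusted p of 0.0382 to 0.0485, and 3.81% of all genes did (2.28% higher). At the other end, PLK1 and AURKA had differences of 0.00 ± 0.14 and 0.00 ± 0.16.

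The shRNAs differed in size here. Relative to the mean of the control ATRA arrays, the shRNA2 array was higher at all 56 members, with a median of 0.47 and a range of 0.11 to 0.79, whereas the mean of the shRNA1 arrays was higher at 42 of 56, with a median of 0.13 and a range of -0.15 to 0.60. The shRNA2 array was the highest of the 6 ATRA arrays for 47 members, against 10.3% of all genes, and stood above every control ATRA array for 51, against 25.2% of all genes. Both shRNA1 arrays stood above every control ATRA array for 14, against 19.1% of all genes. Untreated, the shRNA2 array was the highest of 6 for 19 members, against 26% of all genes. With a single shRNA2 array in each state, the construct, the clone and the array cannot be told apart. Without the shRNA2 ATRA array, 42 of 56 members stayed above 0 after ATRA, with a median of 0.13.

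Among single genes, shRNA2 and shRNA1 lay together for CDC25A (0.57 in shRNA2 and 0.60 in shRNA1) and CENPM (0.38 and 0.44), the members at which shRNA1 was the higher. They lay apart for AURKA (0.31 in shRNA2 and -0.15 in shRNA1), PLK1 (0.24 and -0.12), DLGAP5 (0.44 and -0.11) and CENPE (0.62 and -0.04). By role, the median difference was 0.62 in shRNA2 and 0.27 in shRNA1 for kinetochore and centromere genes, and 0.40 in shRNA2 and 0.01 in shRNA1 for spindle organisation and cytokinesis.

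**Figure D5:**
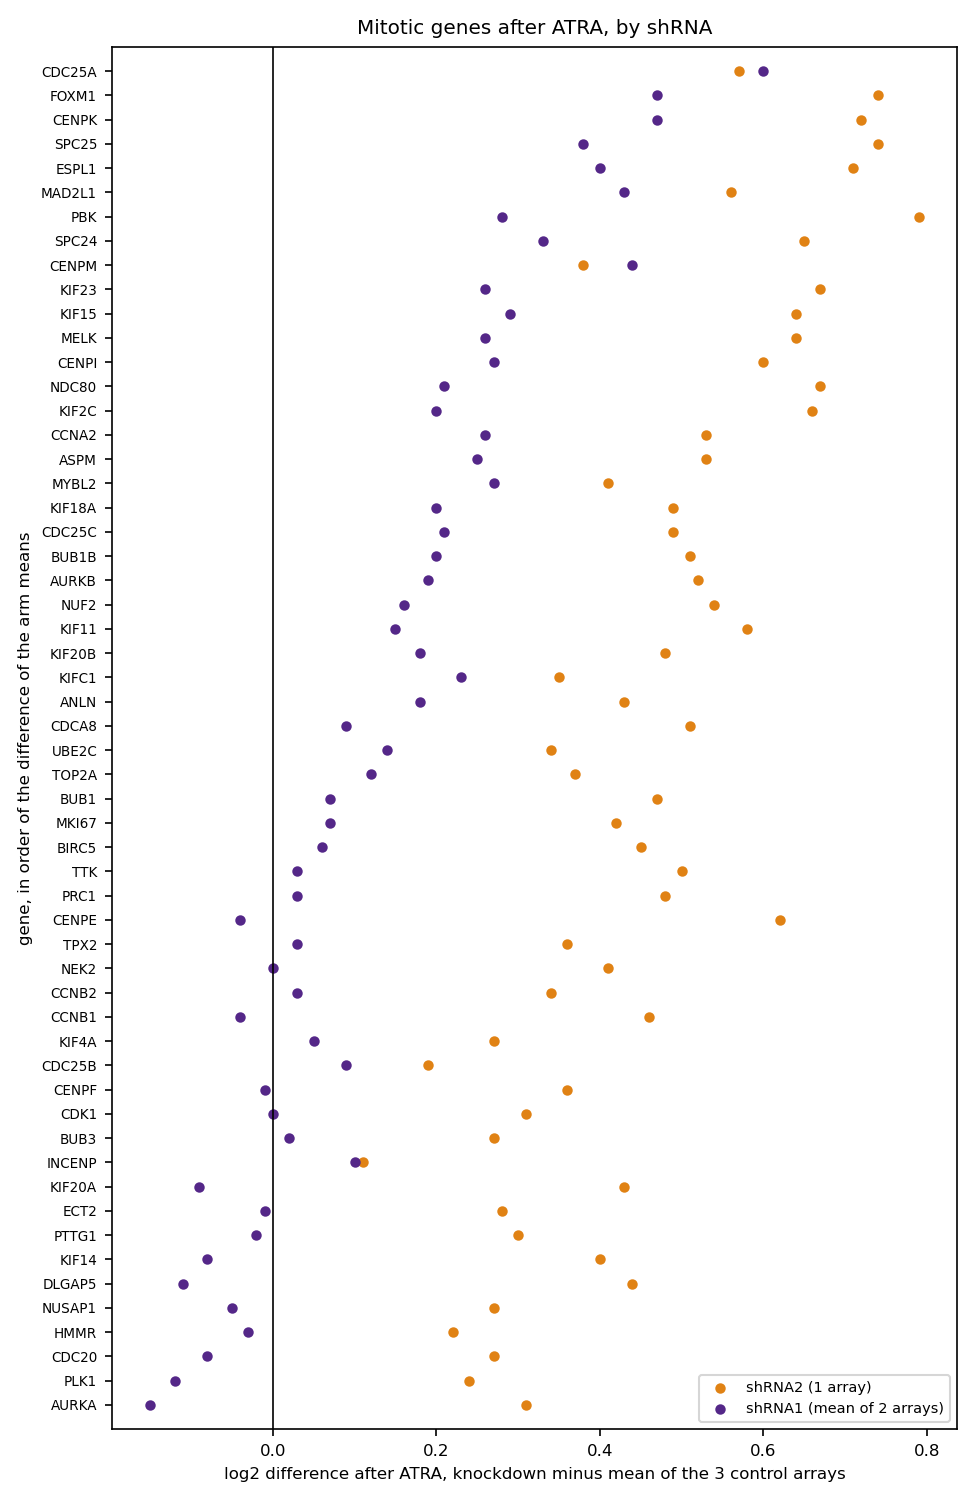
Log2 difference from the mean of the 3 control arrays after ATRA, for each of the 56 genes, in shRNA2 cells (1 array, orange) and shRNA1 cells (mean of 2 arrays, purple), ordered by the difference between arm means. All orange points lie right of 0, from 0.11 to 0.79, and purple points run from -0.15 to 0.60.

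Whether ATRA changed members less in knockdown than in control cells was tested by the interaction term. No member and no gene passed in limma (0% in either direction), and 5 of 56 members had an unadjusted p under 0.05 (ESPL1, CENPK, KIF23, FOXM1 and MELK), as had 15.3% of all genes. The median difference between the changes was 0.13, with 46 of 56 above 0, where 48.7% of all genes were. The median over all genes was -0.01, and 0.07 with the dimmest genes left out. Quantile normalization gave members a median of 0.04, with 32 of 56 above 0, and array weights one of 0.25, with 56 of 56. The smallest p belonged to CENPK, with a change of -0.39 ± 0.10 in knockdown cells and -0.89 ± 0.10 in control cells and a difference of 0.50 ± 0.14 (adjusted p = 0.271). KIF23 followed with 0.46 ± 0.18 (adjusted p = 0.295), FOXM1 with 0.47 ± 0.19 (adjusted p = 0.297) and MELK with 0.45 ± 0.18 (adjusted p = 0.298). Without the shRNA2 ATRA array the median difference was 0.03, with 31 of 56 above 0. Without the untreated scrambled 2 array it was 0.10, with 40 of 56 above 0.

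S phase genes, read from a list of 30 with 29 measured, give a neighbouring set from the same cell cycle. With ATRA, 23 of the 29 fell in knockdown cells (median -0.53), against 14.7% of all genes. In control cells 29 fell (median -1.05), against 20.9% of all genes. After ATRA, the median difference between knockdown and control cells was 0.51, with all knockdown arrays above all control arrays for 25 of 29, against 14.3% of all genes, and the median difference between the changes was 0.49. None of the 29 passed in limma in either comparison. An unadjusted p under 0.05 was found for 26 of them after ATRA, against 28.1% of all genes, and for 22 in the difference between the changes, against 15.3%. The mitotic genes had 0.22 and 0.13 in the same comparisons. In shRNA1 cells the S phase genes lay a median of 0.48 above control cells after ATRA, where mitotic genes lay 0.13 above, and in shRNA2 cells 0.57, where mitotic genes lay 0.47 above. The gap between the lists was not tested.

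A further 100 genes of mitosis were measured from 5 lists. In knockdown cells 57 fell, 2 rose and 41 were not called (median -0.43), where 14.7% of all genes fell and 10.1% rose. In control cells 71 fell, 0 rose and 29 were not called (median -0.61), where 20.9% of all genes fell and 15.2% rose. Of 29 further kinetochore and centromere genes, 17 fell in knockdown and 25 in control cells, and of 29 further spindle and cytokinesis genes, 17 and 20. Of 20 genes of the anaphase-promoting complex and its regulators, 11 fell in each. Of 13 further genes of mitotic entry, 8 fell in knockdown and 9 in control cells, and of 9 genes of the DREAM and MuvB complexes, 4 and 6.

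TRIP13, the ATPase that recycles MAD2, fell most, by -1.30 ± 0.22 in knockdown cells (adjusted p = 0.00143) and by -1.56 ± 0.22 in control cells (adjusted p = 0.000305). SPDL1, the dynein adaptor spindly, changed by -1.0 ± 0.16 (adjusted p = 0.00108) and by -1.15 ± 0.16 (adjusted p = 0.000282), and ARHGAP11A, a RhoA regulator of cytokinesis, by -0.85 ± 0.13 (adjusted p = 0.00083) and by -1.23 ± 0.13 (adjusted p = 8.43e-05). The genes that rose were ANAPC16, a subunit of the anaphase-promoting complex, and RBL2, the pocket protein p130 of the repressive DREAM complex. ANAPC16 was at 10.23, 10.14 and 10.21 in knockdown cells after ATRA, against 9.79, 9.82 and 9.77 untreated, a rise of 0.40 ± 0.10 (adjusted p = 0.0135), with -0.04 ± 0.10 in control cells (adjusted p = 0.765). RBL2 was at 9.28, 9.25 and 9.26 in knockdown cells after ATRA, against 9.04, 9.00 and 8.88 untreated, a rise of 0.29 ± 0.09 (adjusted p = 0.044), with 0.05 ± 0.09 in control cells (adjusted p = 0.728). A call in knockdown cells alone is no test of a difference between the changes, for which no gene passed.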

How the data were processed

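Total RNA of NB4 cells, an established cell line, was labelled and hybridised to 12 Affymetrix ST arrays. The values deposited by the authors are on a log2 scale, and the tools named are RMA and limma, per the submitters' processing notes; versions and settings are not given in the sources used here. The log2 values were used as deposited, with array medians of 7.73 to 7.81. Upper quartiles were 9.11 to 9.17 in control ATRA arrays and 9.23 to 9.27 in knockdown ATRA arrays. Precision is limited by how few arrays there are.

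Of 32321 probe sets, the platform annotation gave 1 gene for 19158, several genes for 1388 and no entry for 11775. Of those with 1 gene, 19128 had an Entrez identifier found in RefSeq. For the 637 genes with more than 1 probe set, the brightest on average across all arrays was taken. BIRC5 and KIFC1 are such members, and KIF4A has a further probe set shared with KIF4B that was not used. This left 18404 genes, with no filter on low values.

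Arms were control (wild type, scrambled) and knockdown (shRNA1, shRNA2) cells, untreated or with ATRA, 3 arrays each. Arm means were fitted over all 12 arrays with lmFit and eBayes (default settings) of limma 3.58.1 in R 4.3.3, with 8 residual degrees of freedom. Two-sided p-values were adjusted by Benjamini-Hochberg over all 18404 genes in each of 5 contrasts and called under 0.05. Differences were taken as ATRA less untreated, and knockdown less control. With 3 arrays on each side, exact permutation p-values have a floor of 0.1, so none was used. The fit was tested on simulated data with known changes. Changes per line are the ATRA array minus the untreated array of the same line and replicate number.

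The members, the gene lists, the comparisons and the alternatives were chosen with earlier results of these data known. Named with values per array were, in each role, the 2 members with the largest and the 1 with the smallest mean ATRA change, and the 4 with the smallest p in each knockdown comparison. Members not called with ATRA were also named, CDC25C, BUB3, ESPL1, KIF14 and ASPM by their changes alone. KIF23, CENPK and CENPM were named by that rule for knockdown comparisons alone. KIF23 and CENPK are given with arrays of both states, and CENPM with its untreated arrays. Promoter sequences and starts are from RefSeq, build GRCh38.p14, and a gene counts as having a motif where any of its windows does. Alternatives were other normalizations, filters, probe set rules, array weights, variance models, a line block and leaving out arrays, with windows of 100 bases before to 50 after for motifs.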

Additional observations from a re-analysis of the deposited data

How the results depend on the processing

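Of 1638 single-gene values recomputed under the alternatives, 1529 kept their direction and their side of the threshold, 85 no longer passed, 24 newly passed and 0 reversed. Of the 52 members called lower with ATRA in control cells, 43 stayed called under all 21 alternatives, and of the 46 in knockdown cells, 28 did. Besides the losses given above, knockdown calls were lost under 4 alternatives for CCNB2 and under 3 for KIF11 and KIFC1. INCENP and MELK lost theirs under 2, and KIF2C and HMMR under 1. Leaving out 1 array at a time gave 30 to 46 calls in knockdown cells, the fewest without the shRNA1 replicate 1 ATRA array, with medians of -0.75 to -0.53, and 46 to 53 calls in control cells, with medians of -0.86 to -0.70. After ATRA it gave 0 to 4 members called higher in knockdown than in control cells, the 4 without the untreated scrambled 2 array, with medians of 0.13 to 0.33. Untreated, medians ran from 0.00 to 0.11, and for the difference between the changes from 0.03 to 0.22, with 0 calls in each. After ATRA, 1 member was called higher with arrays centred on the median and 1 with the dimmest genes left out (CENPK in each), and 4 with array weights. Array weights put 56 of 56 members above 0 after ATRA (median 0.29) and for the difference between the changes (median 0.25). Untreated, they put 30 of 56 above 0 (median 0.01). Quantile normalization put the median change at -0.79 in scrambled 2 and at -0.52 in wild type cells, with 45 of 56 members above 0 after ATRA and 32 of 56 for the difference between the changes. The cause was not tested.

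Calls over all genes after ATRA, 11 as reported, were 280 with quantile normalization, 357 with arrays centred, 63 with the dimmest genes left out, 28 with the trend and robust options, 696 with array weights, 701 without the untreated scrambled 2 array and 0 without the shRNA2 arrays. Those with ATRA in knockdown cells, 4568 as reported, were 2318 without the shRNA2 arrays and 2361 with scrambled and shRNA1 arrays alone; those in control cells, 6644 as reported, were 2981 in that last setting. In control cells, 57.9% of calls as reported were lower, 74.4% with scrambled and shRNA1 arrays alone, 64.3% with arrays centred and 64.1% with the dimmest genes left out.

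With the line as a replicate block, 46 members were called lower with ATRA in knockdown cells and 53 in control cells, and 0 in the other comparisons. In the main tests the numbers were not taken to pair the arrays, unlike in the changes line by line. The reason was that deviations of the ATRA and untreated arrays of a line from their arm means correlated unevenly. Correlations were 0.119, 0.161 and 0.226 in knockdown lines but -0.108, 0.193 and -0.173 in scrambled 1, scrambled 2 and wild type cells. Every knockdown array and, of the control arrays, only scrambled 2 correlated best with its own line. With the shorter promoter window, 61.7% of members held CHR letters, against 0% of S phase genes and 8.46% of all genes.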

Other observations

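Among the further genes of mitotic entry, WEE1, the kinase that holds CDK1 inactive, was picked out after its values were seen. Its mean changes had opposite signs in knockdown and control cells. WEE1 has 3 probe sets, of which the brightest was read. It was at 10.65, 10.26 and 10.42 in knockdown cells after ATRA, against 10.50, 10.36 and 9.83 untreated, and at 10.19, 9.69 and 9.53 in control cells after ATRA, against 10.38, 10.28 and 10.29 untreated. All 3 knockdown arrays lay above all control arrays after ATRA, as they did for 14.3% of all genes. In limma neither change passed (0.21 ± 0.19, adjusted p = 0.489, in knockdown cells and -0.51 ± 0.19, adjusted p = 0.0534, in control cells), nor did the difference after ATRA, 0.64 (adjusted p = 0.0757). No gene passed for the difference between the changes, WEE1 included. CENPU, an inner kinetochore protein, had the largest difference after ATRA among the further kinetochore and centromere genes, also chosen after its values were seen. It was at 9.17, 9.10 and 9.37 in knockdown cells after ATRA, against 8.83, 8.48 and 7.93 in control cells, a difference of 0.80 (adjusted p = 0.0539).

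CTSG, the primary granule protease cathepsin G, was the only promyelocyte marker of 5 that passed with ATRA, in knockdown cells. It was at 7.72, 8.40 and 8.06 in knockdown cells after ATRA, against 10.51, 9.57 and 11.45 untreated, a change of -2.45 ± 0.49 (adjusted p = 0.00356). In control cells it was at 7.56, 8.07 and 8.05 after ATRA, against 9.98, 8.03 and 8.91 untreated, a change of -1.08 ± 0.49 (adjusted p = 0.102), and the untreated scrambled 1 array lay among the ATRA arrays.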
